A study of Homo sapiens with 15 samples.

Results

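The genes described here are the p53 family members TP63 and TP73, the p53 regulator MDM2 and 6 genes known as p53 targets, which are CDKN1A, GADD45A, SFN, SESN1, RRM2B and TP53I3. They were chosen by gene symbol, and all 9 are among the 33158 genes of the table that the authors deposited. RNA captured with oligo(dT) was sequenced from 15 libraries of 3 triple negative breast cancer cell lines, to compare cancer stem cells (CSCs) with the remaining cells. From SUM149PT and from HCC1937, cells sorted as CD44+/CD24-/low (the CSCs) and non-CSCs each gave 3 libraries, and SUM159PT, labelled as CSCs and used unsorted, gave 3 more. Values are FPKM, fragments scaled to the length of the transcript and to the mapped fragments of the library, so levels of different genes are compared per length. The p53 gene itself was not analysed here.

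The p53 family are transcription factors that bind DNA as tetramers, at a pair of like sequence elements known as the p53 consensus. After DNA damage and other stress, p53 turns on genes that stop the cell cycle, repair DNA, change metabolism or start apoptosis, and it turns on MDM2, which marks p53 itself for degradation. In the breast p63 is best known in the basal and myoepithelial layer, where it maintains basal epithelial cells. The lines used here are known to carry mutated p53, and the target genes also respond to p63, p73 and factors outside the family.

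The sum of FPKM over all genes was 291276 to 316860 in the SUM149PT CSC libraries and 300358 to 320982 in the SUM149PT non-CSC libraries. It was 306225 to 345131 in HCC1937 CSCs and 330310 to 366532 in HCC1937 non-CSCs. In SUM159PT it was 634746 to 652082, above every sorted library, while genes above 1 FPKM numbered 8534 to 8670, against 11249 to 11997 in the sorted libraries. The 100 genes with the highest FPKM held 58.3% to 59.2% of the sum in SUM159PT and 30.6% to 34.7% in the sorted libraries. SUM159PT therefore stands apart in how its values are spread, and its comparisons are given last. Read counts are not in the table, so the depth is unknown and precision rests on the 3 libraries per group.

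The labelled sort was visible in CD24, a marker of the gate, at 7.74 ± 0.198 FPKM (mean ± SD, n = 3, as throughout) in SUM149PT CSCs and 139.5 ± 6.53 in non-CSCs. HCC1937 CSCs held 23.3 ± 0.747 FPKM of CD24 and non-CSCs 150.0 ± 14.3. CD44, the other gate marker, was called in neither line. It was at 84.4 FPKM in SUM149PT CSCs against 64.5 in non-CSCs (log2 fold change 0.39, adjusted p = 0.0017). In HCC1937 it was at 106 FPKM against 97.8, with overlap (0.12, adjusted p = 0.31). Unsorted SUM159PT held 0.729 FPKM of CD24 and 28.8 of CD44, the lowest of the 5 groups for both. Of 5 breast epithelial markers, 4 fell in the CSCs of each sorted line (EPCAM, KRT8, KRT18 and KRT17), also under upper quartile, quantile and TPM scaling and with a trend on GC content removed. EGFR, the other marker, named after its values were seen, went the other way in SUM149PT, with 25.03 FPKM in CSCs against 13.6 in non-CSCs (log2 fold change 0.87, adjusted p = 0.00019), short of the fold limit but called higher under quantile scaling, and the HCC1937 value was 0.28 (adjusted p = 0.26). In SUM149PT these 5 markers summed to 166.95, 174.3 and 172 FPKM in the CSC libraries and to 1039, 1001 and 991 in the non-CSC libraries. The sums in HCC1937 were 595, 553 and 499.6 FPKM in CSCs and 1557, 1567 and 1336 in non-CSCs. In SUM159PT they were 296, 281 and 296 FPKM, with EPCAM at 0.0467 FPKM. Of the hormone receptor and HER2 markers, PGR, named after its values were seen, was at or near 0, ERBB2 was at 3.55 to 19.1 FPKM by group, and ESR1, low throughout, fell in CSCs from 0.970 to 0.0743 FPKM in SUM149PT and from 1.66 to 0.393 FPKM in HCC1937, calls lost with a pseudocount of 1 (-0.87 and -0.94). Of the 2 of these markers tested, ESR1 was the 1 called in each line. Because these are bulk samples, fewer cells that express a gene and less RNA per cell cannot be told apart.

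The members differed widely in level. Among genes above 0 they lay between percentile 32.7 (TP73 in SUM149PT non-CSCs) and percentile 99.4 (GADD45A in SUM149PT CSCs). GADD45A had the highest FPKM of the 9 in SUM149PT CSCs (341 ± 9.97) and in SUM159PT (107 ± 5.28), and SFN had the highest in the other 3 groups, at 300.5 ± 9.55 in SUM149PT non-CSCs, 101 ± 13.1 in HCC1937 CSCs and 316 ± 22.2 in HCC1937 non-CSCs. GADD45A, CDKN1A and SFN together held 91.0% to 96.4% of the summed FPKM of the 9 members. At the other end TP73 was lowest in 3 groups, TP53I3 in SUM149PT CSCs and RRM2B in SUM159PT. The members divide into 3 abundant genes, all targets, and 6 genes that never exceeded 13.6 FPKM in a library.

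**Figure D1:**
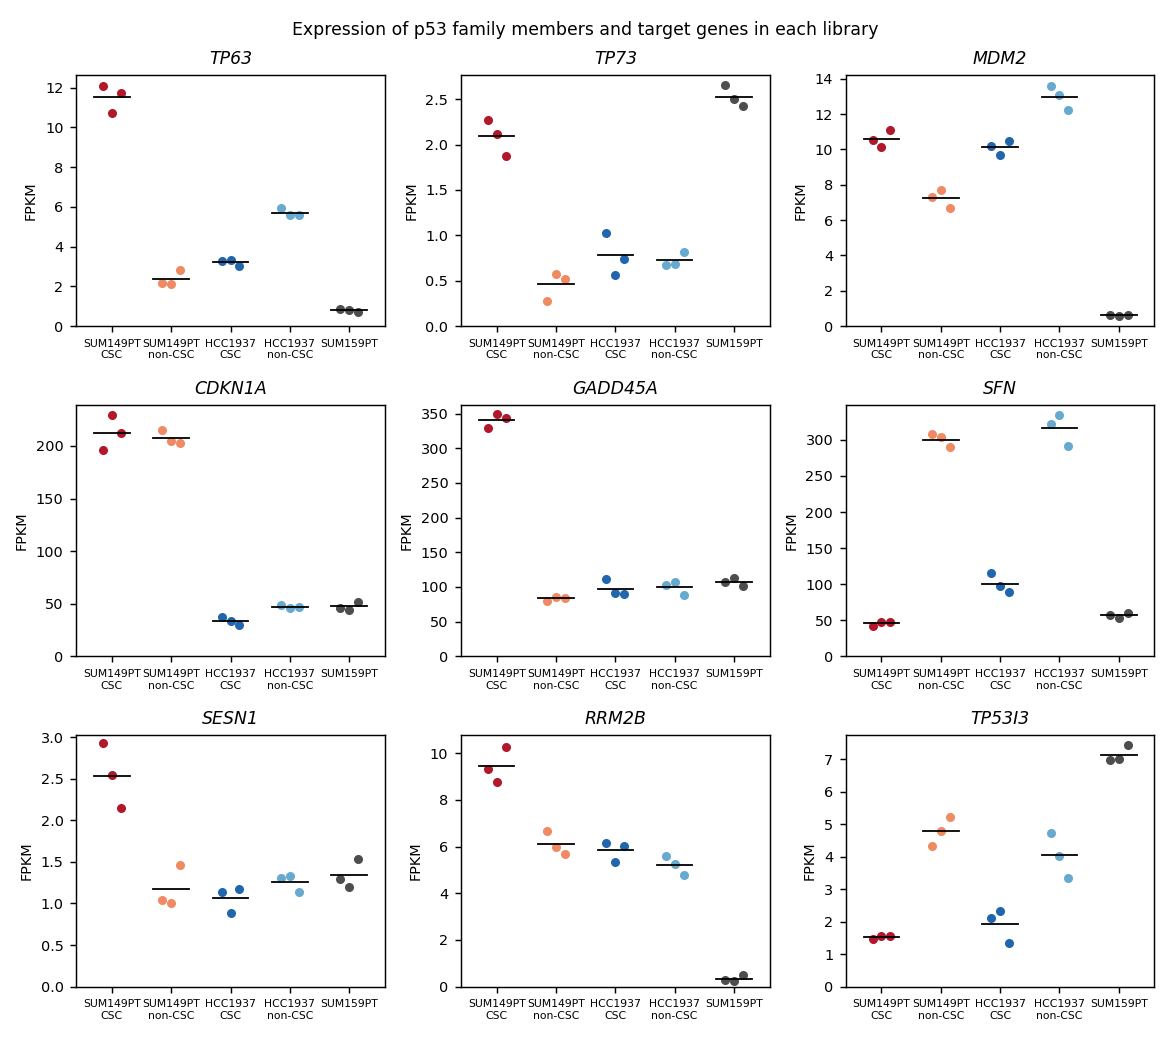
FPKM of each of the 9 members, 1 panel a gene with its own axis from 0, with a point for each of the 15 libraries and a line at the mean of each group. TP63 is highest in the 3 SUM149PT CSC libraries (10.7 to 12.1 FPKM) and lowest in the 3 SUM159PT libraries (0.713 to 0.861 FPKM).

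Comparisons were tested with limma on log2(FPKM + 0.1), leaving out genes whose mean in the libraries compared was under 0.1 FPKM. Called genes are those with an adjusted p up to 0.05 whose log2 fold change was 1 or more in size, and "rose" and "fell" are used for called genes. All 9 members passed the filter on low values in each comparison. The labels do not say whether the 3 libraries of a group come from separate cultures, so the p-values measure only the spread between these samples.

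In SUM149PT CSCs against non-CSCs, 6 of the 9 members were called, where 34.9% of the 16037 genes tested were. Of these, 4 rose (TP63, TP73, GADD45A and SESN1), where 12.8% of all genes did, and 2 fell (SFN and TP53I3), where 22.1% did. By the adjusted p alone 8 members passed, as did 74.8% of all genes, so most genes differed between these fractions. The median log2 fold change was 0.62 over the 9 members and -0.11 over all genes. In HCC1937 CSCs against non-CSCs, 2 members were called and both fell (SFN and TP53I3), where 8.71% of the 15582 genes tested were called in either direction and 6% fell. None of the 9 rose there, where 2.71% of all genes did, and 5 passed the adjusted p alone, where 25.6% of all genes did. The median was -0.35 over the members and -0.03 over all genes.

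**Figure D2:**
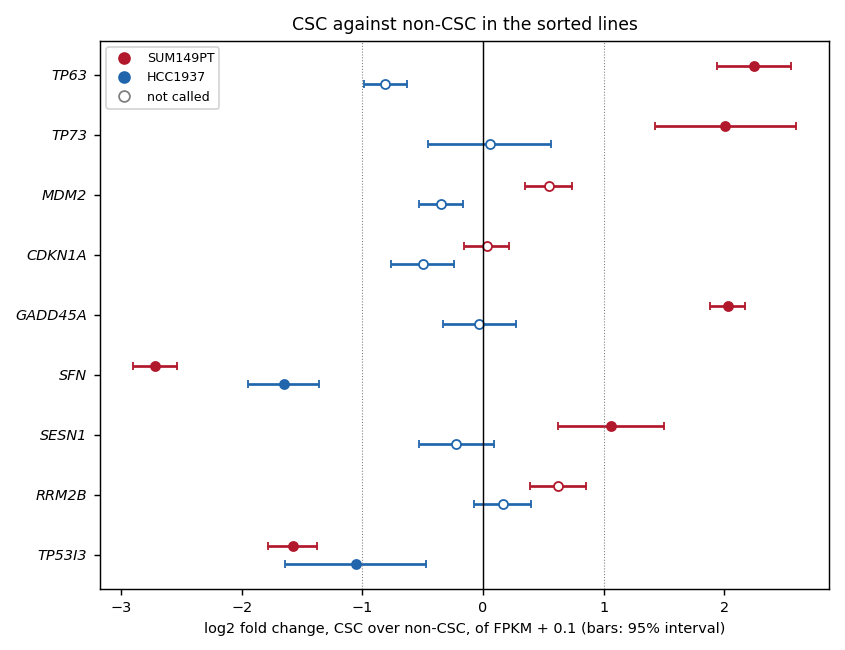
Log2 fold change of CSCs against non-CSCs for each member in SUM149PT and in HCC1937, on the scale of log2(FPKM + 0.1), with 95% confidence intervals from limma as bars. Filled points are called, dotted lines mark the fold limit, and SFN and TP53I3 lie below 0 in both lines, while TP63 lies at 2.24 in SUM149PT and at -0.81 in HCC1937.

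TP63 encodes p63, the family member that basal epithelial cells need, at chr3:189631416-189897279 of GRCh38. In the SUM149PT CSC libraries TP63 was at 12.1, 10.7 and 11.7 FPKM, and in the non-CSC libraries at 2.17, 2.12 and 2.81 FPKM. HCC1937 CSC libraries held 3.30, 3.34 and 3.01 FPKM of it, and HCC1937 non-CSC libraries 5.94, 5.58 and 5.61 FPKM. Its level in SUM159PT was 0.861, 0.822 and 0.713 FPKM. The 5 groups did not overlap, and their order from the highest mean was SUM149PT CSCs, HCC1937 non-CSCs, HCC1937 CSCs, SUM149PT non-CSCs and SUM159PT. Within SUM149PT TP63 rose 4.87-fold in CSCs, a log2 fold change of 2.24 (95% confidence interval 1.94 to 2.55, adjusted p = 2.49e-05). Within HCC1937 it was lower in CSCs in all 3 libraries, with a log2 fold change of -0.81 (-0.99 to -0.63, adjusted p = 0.0011) that did not reach the fold limit. The CSC difference of TP63 thus had opposite signs in the lines.

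TP73 encodes p73, a family member that can activate many p53 targets, at chr1:3652520-3736201. SUM149PT CSC libraries held 2.27, 2.12 and 1.88 FPKM and SUM149PT non-CSC libraries 0.277, 0.578 and 0.523 FPKM. The HCC1937 CSC libraries were at 1.03, 0.563 and 0.741 FPKM and the non-CSC libraries at 0.678, 0.686 and 0.819 FPKM, so that the fractions of this line overlapped. In SUM159PT TP73 was at 2.65, 2.50 and 2.42 FPKM, the highest of the 5 groups and just above SUM149PT CSCs without overlap. It rose 4.55-fold in SUM149PT CSCs, by 2.01 on the log2 scale (1.42 to 2.60, adjusted p = 0.00052), a value that a pseudocount of 1 in place of 0.1 brought down to 1.09. At the study's limit of 0.0001 on the adjusted p, TP73 was not called. In HCC1937 the log2 fold change was 0.06 (-0.46 to 0.57, adjusted p = 0.87), and without CSC library 1 it was -0.14. TP73 shares 633 exon bases, 9.36% of its own, with TP73-AS1 on the other strand, and the strand of the reads is not stated, so the contribution of that gene cannot be told apart. TP73-AS1 was at 0.0975 FPKM in SUM149PT CSCs and 1.89 in non-CSCs, the opposite order to TP73, at 6.58 and 6.88 FPKM in HCC1937 CSCs and non-CSCs, and at 0.0203 FPKM in SUM159PT.

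In every sorted library TP63 exceeded TP73 per length, with TP63 over TP73 at 5.06 to 6.24 in SUM149PT CSCs, 3.66 to 7.83 in SUM149PT non-CSCs, 3.21 to 5.93 in HCC1937 CSCs and 6.85 to 8.76 in HCC1937 non-CSCs, where the fractions of HCC1937 did not overlap. In SUM159PT the ratio of the deposited values was 0.294 to 0.329. The genes differ in GC content (42.4% for TP63, 61% for TP73), and with the GC trend removed the log2 values of SUM159PT against SUM149PT CSCs went from -3.69 to -1.59 for TP63 and from 0.26 to -0.44 for TP73, so the size of this shift depends on the scaling.

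Of 15 basal epithelial genes known as p63 targets, 3 rose and 6 fell in SUM149PT CSCs, where TP63 rose, and the list had a median log2 fold change of -0.72. Of all genes 12.8% rose and 22.1% fell there. Upper quartile, quantile and TPM scaling and the removal of the GC trend each gave 4 that rose and 6 that fell. In HCC1937 CSCs 8 of the 14 genes tested fell and 0 rose, where 6% of all genes fell and 2.71% rose, with a median of -1.29, and limma called 9 lower under TPM scaling. KRT5, a keratin of basal cells, fell by 4.62 on the log2 scale in SUM149PT CSCs, from 141 ± 3.55 to 5.64 ± 0.373 FPKM (adjusted p = 1.4e-06). In HCC1937 CSCs it was at 12.9 ± 0.666 FPKM against 32.4 ± 0.896 in non-CSCs, a log2 fold change of -1.33 (adjusted p = 0.00024). CDH3, the P-cadherin of basal cells, fell in SUM149PT CSCs from 93.4 to 4.76 FPKM, and in HCC1937 CSCs from 189 to 52.7 FPKM. ZNF750, a transcription factor of epidermal differentiation, also fell in the CSCs of both lines, to 0.116 from 1.87 FPKM in SUM149PT and to 0.149 from 1.38 FPKM in HCC1937. In SUM149PT CSCs the listed p63 targets were thus called in both directions, as were genes overall.

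MDM2 encodes the ubiquitin ligase that holds p53 in check and is itself a p53 target, at chr12:68808176-68850686. The SUM149PT CSC libraries were at 10.5, 10.1 and 11.1 FPKM and the non-CSC libraries at 7.31, 7.72 and 6.66 FPKM. In HCC1937 it was at 10.2, 9.69 and 10.5 FPKM in CSCs and at 13.6, 13.1 and 12.2 FPKM in non-CSCs. MDM2 in SUM159PT was at 0.617, 0.548 and 0.642 FPKM. The fractions did not overlap in either sorted line, but their order was opposite, and the CSC groups of SUM149PT and HCC1937 overlapped each other. The log2 fold change of CSCs was 0.54 in SUM149PT (0.35 to 0.74, adjusted p = 0.0012) and -0.35 in HCC1937 (-0.53 to -0.17, adjusted p = 0.019), both short of the fold limit. MDM2 shares 785 exon bases, 5.91% of its own, with an antisense gene and 439, 3.3%, with a processed pseudogene on its own strand, neither matched in the table, and 133, 1%, with CPM on the other strand. CPM was at 0.283 FPKM in SUM149PT CSCs against 8.11 in non-CSCs, at 12.6 against 5.75 FPKM in HCC1937, and at 0.00909 FPKM in SUM159PT.

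Promoter sequences of 7 members were in the RefSeq set used here (GRCh38.p14), as 14 windows of 300 bases, each reaching over a start site. They were searched on both strands for the p53 consensus, as a pair of elements side by side over 20 bases with at most 3 mismatches and the 4 core C and G positions kept. Matches were found in 4 windows of 3 members, MDM2, TP73 and SESN1, and in 392 of all 35116 windows (1.12%). The 2 MDM2 windows with a match overlap and hold the same site, so the matches are 3 distinct sites. With at most 2 mismatches, the limit met by the MDM2 and TP73 matches, 100 windows (0.285%) held one. Of the members with a match, TP73 and SESN1 were called in SUM149PT CSCs and MDM2 was not. TP63, SFN and TP53I3 were called without a match, and CDKN1A had neither. The stretches with a match are printed, with the matched bases in capitals. They lie inside the genes and under no exon annotated in GENCODE 29, and they read 5′ to 3′ along the strand of the gene, MDM2 at chr12:68808883-68808982 (+), TP73 at chr1:3690556-3690655 (+) and SESN1 at chr6:109008989-109009077 (-).
MDM2: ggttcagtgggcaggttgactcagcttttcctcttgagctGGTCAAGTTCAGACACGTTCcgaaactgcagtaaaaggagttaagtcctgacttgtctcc
TP73: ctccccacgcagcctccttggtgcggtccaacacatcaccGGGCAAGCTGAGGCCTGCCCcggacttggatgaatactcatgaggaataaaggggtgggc
SESN1: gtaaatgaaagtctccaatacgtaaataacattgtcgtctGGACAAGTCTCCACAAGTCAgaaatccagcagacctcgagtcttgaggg
A match is a description of letters, not a measured binding site, and a window with no match says nothing about the rest of the gene.

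Of 9 other regulators of p53, 2 rose and 1 fell in SUM149PT CSCs, where 12.8% of all genes rose and 22.1% fell, and 1 rose in HCC1937 CSCs, where 2.71% did. HIPK2, a kinase that phosphorylates p53, rose in both lines, from 2.14 ± 0.223 to 8.24 ± 0.772 FPKM in SUM149PT (log2 fold change 1.90, adjusted p = 2.69e-05) and from 2.00 ± 0.228 to 4.73 ± 0.435 FPKM in HCC1937 (adjusted p = 0.0013). With a pseudocount of 1 the HCC1937 log2 fold change of HIPK2 was 0.93, short of the fold limit. PPP1R13L, an inhibitor of p53, rose in SUM149PT CSCs from 30.6 to 63.3 FPKM and was at 21.2 FPKM in HCC1937 CSCs against 34.6 in non-CSCs, where the log2 fold change of -0.71 did not reach the fold limit. TP53BP2, which is known to help p53 act on apoptosis genes, fell in SUM149PT CSCs from 34.3 to 11.8 FPKM and was at 22.5 and 24.03 FPKM in HCC1937. Under quantile scaling 3 of the regulators rose in SUM149PT.

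CDKN1A encodes p21, the inhibitor of cyclin-dependent kinases that carries out much of the arrest p53 brings about, at chr6:36676460-36687339. SUM149PT CSC libraries were at 196, 229 and 213 FPKM and SUM149PT non-CSC libraries at 215, 205 and 203 FPKM, and these fractions overlapped. The HCC1937 CSC libraries were at 37.6, 33.7 and 29.4 FPKM and the non-CSC libraries at 48.7, 46.2 and 47.1 FPKM. In SUM159PT CDKN1A was at 46.2, 44.5 and 51.6 FPKM, overlapping HCC1937 non-CSCs. All 6 SUM149PT libraries exceeded all 9 others. The log2 fold change of CSCs was 0.03 in SUM149PT (-0.16 to 0.22, adjusted p = 0.73) and, without CSC library 2, -0.02. In HCC1937 it was -0.50 (-0.76 to -0.24, adjusted p = 0.019), below the fold limit. CDKN1A thus set SUM149PT apart from the other 2 lines, and the fractions were not called. It shares 146 exon bases, 4.79% of its own, with the noncoding gene DINOL on the other strand, which was not matched in the table.

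GADD45A encodes a stress protein that takes part in arrest and DNA repair, at chr1:67685061-67688338. Its level in the SUM149PT CSC libraries was 329.7, 349 and 343 FPKM, against 80.3, 85.8 and 84.4 FPKM in the non-CSC libraries. HCC1937 held 111, 91.1 and 90.3 FPKM in CSCs and 103, 107 and 88.6 FPKM in non-CSCs, which overlapped. SUM159PT libraries were at 108, 112 and 102 FPKM. The 3 SUM149PT CSC libraries stood alone, and the other 12 lay between 80.3 and 112 FPKM. GADD45A rose 4.08-fold in SUM149PT CSCs, by 2.03 on the log2 scale (1.88 to 2.17, adjusted p = 3.36e-06). In HCC1937 the log2 fold change was -0.03 (-0.33 to 0.27, adjusted p = 0.88), and its sign turned under TPM scaling (0.09), quantile scaling (0.06) and GC trend removal (0.01), and without CSC library 2 (0.02), CSC library 3 (0.02) or non-CSC library 2 (0.02).

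SFN encodes 14-3-3 sigma, an epithelial protein that holds cells at the entry to mitosis, at chr1:26863138-26864457 in a gene of 1 exon. The SUM149PT CSC libraries were at 41.9, 47.5 and 47.3 FPKM and the non-CSC libraries at 308, 303 and 289.8 FPKM. In HCC1937 SFN was at 115, 97.9 and 89.3 FPKM in CSCs and at 322, 334 and 291 FPKM in non-CSCs. The SUM159PT libraries were at 57.9, 53.2 and 59.5 FPKM. Non-CSCs of both lines were high and overlapped each other, and all CSC and SUM159PT libraries lay far below them. SFN fell by 2.72 on the log2 scale in SUM149PT CSCs, with a confidence interval of -2.90 to -2.54 and an adjusted p of 3.01e-06, and non-CSCs held 6.60-fold more. It fell by 1.65 in HCC1937 CSCs (-1.94 to -1.36, adjusted p = 0.00054), where non-CSCs held 3.13-fold more. Of the 5 breast epithelial markers EPCAM, KRT8, KRT18 and KRT17 fell in the same fractions and EGFR did not, and their part in the lower SFN was not tested.

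SESN1 encodes sestrin 1, which restrains growth signalling by mTORC1 under stress, at chr6:108986437-109094819 on the reverse strand. It was at 2.93, 2.55 and 2.15 FPKM in SUM149PT CSCs and at 1.04, 1.01 and 1.47 FPKM in non-CSCs. The remaining 9 libraries lay between 0.890 and 1.54 FPKM, so SUM149PT CSCs were above all others. SESN1 rose 2.17-fold in SUM149PT CSCs, a log2 fold change of 1.06 (SE 0.177, adjusted p = 0.0024) that stands close to the fold limit. The call was lost with a pseudocount of 1 (0.71), at the study's limit of 0.0001 on the adjusted p, and without CSC library 1 (0.96), non-CSC library 1 (0.99) or non-CSC library 2 (0.97). In HCC1937 the fractions overlapped, with a log2 fold change of -0.22 (-0.53 to 0.09, adjusted p = 0.26). SESN1 shares 363 exon bases, 7.09% of its own, with an antisense gene not matched in the table.

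RRM2B encodes the p53-induced small subunit of ribonucleotide reductase, which supplies deoxynucleotides for DNA repair, at chr8:102204502-102239118 on the reverse strand. SUM149PT CSC libraries were at 9.32, 8.76 and 10.3 FPKM and non-CSC libraries at 6.69, 5.99 and 5.69 FPKM, without overlap. HCC1937 libraries were at 6.14, 5.35 and 6.01 FPKM in CSCs and at 5.61, 5.24 and 4.76 FPKM in non-CSCs, with overlap. In SUM159PT it was at 0.261, 0.236 and 0.508 FPKM, far below every sorted library. The CSC difference in SUM149PT was 0.62 on the log2 scale (0.39 to 0.85, adjusted p = 0.0015), short of the fold limit, and in HCC1937 it was 0.16 (-0.07 to 0.40, adjusted p = 0.28).

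TP53I3 encodes a quinone oxidoreductase induced by p53 and linked to oxidative stress in apoptosis, at chr2:24077433-24085861 on the reverse strand. The SUM149PT CSC libraries were at 1.47, 1.55 and 1.57 FPKM and the non-CSC libraries at 4.33, 4.79 and 5.21 FPKM. In HCC1937 CSCs it was at 2.10, 2.32 and 1.34 FPKM, and in non-CSCs at 4.74, 4.02 and 3.35 FPKM. SUM159PT was highest, at 6.97, 7.004 and 7.44 FPKM. CSC and non-CSC libraries stayed apart in both sorted lines, and like fractions of the lines overlapped. TP53I3 fell by 1.58 on the log2 scale in SUM149PT CSCs (-1.78 to -1.37, adjusted p = 2.11e-05), with 3.12-fold more in non-CSCs. In HCC1937 CSCs it fell by 1.06 (-1.64 to -0.47, adjusted p = 0.024), with 2.10-fold more in non-CSCs. That second call was lost with a pseudocount of 1 (-0.79), quantile scaling (-0.97), TPM scaling (-0.96), GC trend removal (-0.95), and without CSC library 3 (-0.83), non-CSC library 1 (-0.94, adjusted p = 0.081) or non-CSC library 2 (-1.05, adjusted p = 0.075). TP53I3 shares 80 exon bases, 3.46% of its own, with FAM228B on the other strand, a gene at 0.297 FPKM in SUM149PT CSCs and 1.16 in non-CSCs, and at 0.321 and 0.882 FPKM in those of HCC1937.

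Other known p53 targets were called in both directions in SUM149PT CSCs, where 12.8% of all genes rose and 22.1% fell. Among 9 targets in arrest and DNA repair, 2 rose and 2 fell there, while 1 of 8 tested fell in HCC1937 CSCs, where 6% of all genes did, and 0 rose. E2F7, a repressor of cell cycle genes, rose in SUM149PT CSCs from 3.65 ± 0.431 to 23.1 ± 0.344 FPKM (log2 fold change 2.63, adjusted p = 5.96e-06). CCNG1, a cyclin that p53 induces, rose there from 23.7 to 65.2 FPKM. BTG2, an inhibitor of proliferation, fell in HCC1937 CSCs from 10.6 to 4.6 FPKM and stood at 9.57 FPKM in SUM149PT CSCs against 19.1 in non-CSCs, just short of the fold limit with a log2 fold change of -0.99. RPRM, an arrest gene, fell in SUM149PT CSCs from a low 0.456 to 0.0597 FPKM, a call lost with a pseudocount of 1 (-0.46). DDB2, a DNA damage sensor outside the rule for named genes and added after its values were seen, fell from 10.7 to 5.28 FPKM close to the fold limit (-1.001), and was short of it with a pseudocount of 1 (-0.89), under upper quartile (-0.98), quantile (-0.997) and TPM scaling (-0.97), with the GC trend removed (-0.89), and without CSC library 3 (-0.95), non-CSC library 1 (-0.99) or non-CSC library 2 (-0.98). The number of the list that fell in SUM149PT was 1 under upper quartile and TPM scaling and GC trend removal, and 0 with a pseudocount of 1.

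Among 14 apoptosis targets, 1 rose and 3 fell in SUM149PT CSCs, against 12.8% and 22.1% of all genes, and 2 of 13 tested fell in HCC1937 CSCs, against 6% of all genes, where 0 rose. PMAIP1, the BCL2 antagonist NOXA, fell in SUM149PT CSCs from 89.6 to 33.2 FPKM (log2 fold change -1.43, adjusted p = 1.18e-05) and was at 26.7 and 26.8 FPKM in the CSCs and non-CSCs of HCC1937. BBC3, the BCL2 antagonist PUMA, named after its values were seen as the gene that rose, went from 20.2 to 50.4 FPKM. PERP, a p53 and p63 target in desmosomes, fell in HCC1937 CSCs from 125 ± 6.58 to 39.3 ± 0.388 FPKM (log2 fold change -1.67, adjusted p = 0.00015). The CSCs of SUM149PT held 24.6 FPKM and the non-CSCs 37.6. PHLDA3, an inhibitor of AKT, fell in HCC1937 CSCs from 78.3 to 38.2 FPKM, a log2 fold change of -1.03 that came to -0.97 without CSC library 3, -0.96 without non-CSC library 2, -0.91 under TPM scaling and -0.92 with the GC trend removed. TNFRSF10B, a death receptor for TRAIL, was at 119.8 FPKM in SUM149PT CSCs and 80.8 in non-CSCs, without a call. TP53AIP1, which acts at mitochondria, fell in SUM149PT CSCs at a low level, from 0.3195 to 0.0405 FPKM, and the call was lost with a pseudocount of 1 (-0.34). TP53INP1, named after its values were seen, fell there from 1.98 to 0.889 FPKM (-1.07), a call lost with a pseudocount of 1 (-0.66), quantile scaling (-0.67) and without CSC library 2 (-0.98). With a pseudocount of 1 the number of the list that fell in SUM149PT was 1. Quantile scaling gave 2 that rose and 2 that fell in SUM149PT, and in HCC1937 the number that fell was 1 under TPM scaling and GC trend removal.

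Of 7 metabolic and mitochondrial targets, 2 fell in SUM149PT CSCs, against 22.1% of all genes, and 2 of 6 tested fell in HCC1937 CSCs, against 6%, with 0 that rose in either. FUCA1, a lysosomal fucosidase, fell in both lines, from 18.8 ± 0.743 to 4.14 ± 0.0848 FPKM in SUM149PT (log2 fold change -2.16, adjusted p = 2.94e-06) and from 5.42 ± 0.984 to 1.63 ± 0.293 FPKM in HCC1937 (log2 fold change -1.67, adjusted p = 0.0019). C12orf5, the glycolytic regulator TIGAR, fell in SUM149PT CSCs from 2.70 to 1.08 FPKM, and the call was lost with a pseudocount of 1 (-0.83) and quantile scaling (-0.89) and not tried with the GC trend removed. GLS2, a glutaminase, fell in HCC1937 CSCs from 0.512 to 0.190 FPKM (adjusted p = 0.025), a call lost in 9 of 19 alternatives, among them the replicate block (adjusted p = 0.095) and leaving out CSC library 1 (adjusted p = 0.061), CSC library 3 (0.067), non-CSC library 1 (0.056) or non-CSC library 3 (0.061). SCO2, a factor for cytochrome oxidase, was not called, at 18.1 and 27.1 FPKM in SUM149PT CSCs and non-CSCs and at 17.7 and 20.9 FPKM in those of HCC1937. SESN2, a paralog of SESN1, was at 66.0 FPKM in SUM149PT CSCs and 33.8 in non-CSCs, a log2 fold change of 0.97 just short of the fold limit. Under quantile scaling, TPM scaling and GC trend removal 1 gene of the list rose in SUM149PT CSCs. Among 11 tested paralogs and partners of the members, 2 rose in SUM149PT CSCs and 0 fell, against 12.8% and 22.1% of all genes, and 0 of 10 were called in HCC1937. They were GADD45B from 91.7 ± 4.57 to 266 ± 19.7 FPKM (log2 fold change 1.53, adjusted p = 1.94e-05) and SESN3 from 0.785 ± 0.0600 to 4.61 ± 0.218 FPKM (log2 fold change 2.41, adjusted p = 3.98e-06). YWHAZ, a 14-3-3 protein like SFN but present in most tissues, was at 105 FPKM in SUM149PT CSCs and 149.6 in non-CSCs and at 215 and 271 FPKM in those of HCC1937, short of the fold limit in both. Another 14-3-3 gene, YWHAE, is listed at 0 in all 15 libraries although most cells use it, a gene named after its values were seen, so a 0 in this table is read only as listed at 0.

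**Figure D3:**
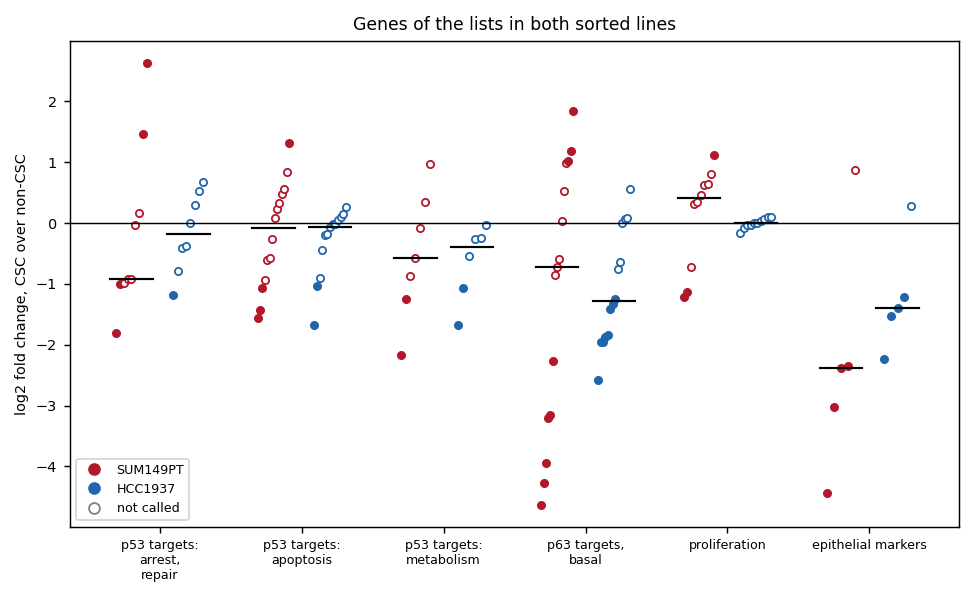
Log2 fold change of CSCs against non-CSCs for the genes of each fixed list, on the scale of log2(FPKM + 0.1), in SUM149PT and in HCC1937, with a point for each gene, filled where called, and a line at the median for 6 of the lists. Among the listed p63 targets, 6 of 15 fell in SUM149PT CSCs and 8 of 14 in HCC1937 CSCs.

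Markers of other cell types also differed between the SUM149PT fractions. The 7 markers summed to 242, 244 and 238 FPKM in the CSC libraries and to 96.0, 98.4 and 104 FPKM in the non-CSC libraries. COL1A1, a stromal collagen, was the most abundant, with 216 ± 2.81 FPKM in CSCs against 49.04 ± 2.90 in non-CSCs. PDGFRB rose from 0.978 to 9.08 FPKM as well, while CD68, VWF and PECAM1 fell (PECAM1 named after its values were seen). VWF and PECAM1 were not called with a pseudocount of 1, at -0.70 and -0.31, and PECAM1 was not called under quantile scaling (-0.65). The T cell marker CD3E, also named after its values were seen, was listed at 0 in all 15 libraries. In HCC1937 the 7 markers summed to 54.9, 56.1 and 51.4 FPKM in CSCs and to 47.9, 47.2 and 47.1 FPKM in non-CSCs, with 0 of 3 tested called and CD68 the most abundant. SUM159PT libraries held 59.98, 66.2 and 64.8 FPKM. PDGFRB was at 11.6 FPKM in SUM159PT. All libraries come from cultured cell lines, so these markers do not by themselves show other cell types. Whether their levels bear on the rise of TP63, TP73, GADD45A and SESN1 in SUM149PT CSCs was not tested.

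The difference of the CSC effect between the lines, SUM149PT minus HCC1937, was tested directly over the 12 sorted libraries. Of the 9 members 5 were called, where 30.4% of 16451 genes were. Higher in SUM149PT were 4 (TP63, TP73, GADD45A and SESN1), where 12.2% of all genes were, and lower was 1 (SFN), where 18.2% were. By the adjusted p alone 8 members passed, where 61.1% of all genes did. The median was 0.90 over the members and -0.08 over all genes. TP63 differed most, by 3.05 on the log2 scale (2.73 to 3.38, adjusted p = 1.05e-07), then GADD45A by 2.06 (1.76 to 2.36, adjusted p = 8.74e-07) and TP73 by 1.95 (1.21 to 2.70, adjusted p = 0.00059). For SESN1 the difference was 1.28 (0.77 to 1.79), and it was 0.83 with a pseudocount of 1, below the fold limit. SFN had -1.07 (-1.38 to -0.76), since it fell further in SUM149PT, and the call was lost with the GC trend removed (-0.84) and without HCC1937 CSC library 1 (-0.97). TP53I3 had -0.52 (-1.11 to 0.07, adjusted p = 0.11), so a difference of its fall between the lines was not shown.

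The lines themselves, HCC1937 against SUM149PT averaged over both fractions, differed in 1 member by the limits used, where 40.3% of 16451 genes were called. CDKN1A was that gene and was lower in HCC1937, where 17.9% of all genes were, by a log2 value of -2.40 (-2.54 to -2.25, adjusted p = 1.78e-10). No member was higher, 0 of 9, where 22.4% of all genes were. By the adjusted p alone 7 members passed, where 82.6% of all genes did. GADD45A differed by -0.78 and was called under upper quartile scaling (-1.02), SFN by 0.60, MDM2 by 0.39 and TP53I3 by 0.01. The median was -0.37 over the members and 0.16 over all genes. All 10 proliferation genes were higher in HCC1937, where 22.4% of all genes were, with a median log2 value of 2.09. They were 10 of 10 under each of the 4 scaling alternatives too. Their summed FPKM was 106, 110.5 and 106 in the SUM149PT CSC libraries and 105, 99.2 and 103 in the non-CSC libraries. In HCC1937 it was 544, 494 and 481 in CSCs and 508, 536 and 492 in non-CSCs. The SUM159PT libraries held 162, 149 and 167. Mean CDKN1A was 47.4 FPKM in SUM159PT, and 33.6 and 47.3 in HCC1937 CSCs and non-CSCs. A link between CDKN1A and the proliferation genes was not tested. PCNA, the replication clamp, was at 19.3 and 31.7 FPKM in the SUM149PT CSCs and non-CSCs and at 164 and 173 FPKM in those of HCC1937. Between fractions 1 proliferation gene rose and 2 fell in SUM149PT CSCs, MCM2 from 9.62 to 4.08 FPKM (not called with the GC trend removed, -0.94) and AURKA from 12.8 to 5.76 FPKM, and 0 of 10 were called in HCC1937.

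SUM159PT was set beside the CSC groups because it carries the same label. It was not sorted, it is another line, and its values are spread differently, and these cannot be told apart from the label. The median log2 fold change of all genes was -0.76 against SUM149PT CSCs and -0.97 against HCC1937 CSCs. Against SUM149PT CSCs 6 members were called, where 66.9% of 14976 genes were, with 1 higher, where 21.3% of all genes were, and 5 lower, where 45.6% were. All 9 passed the adjusted p alone, where 86.9% of all genes did. Against HCC1937 CSCs 5 members were called, where 66.8% of 15515 genes were, with 2 higher, where 18.5% were, and 3 lower, where 48.3% were, and 7 passed the adjusted p alone, where 85.4% did. The median over the members was -1.67 in the first comparison and 0.14 in the second. These comparisons share the SUM159PT libraries.

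In the deposited values MDM2 and RRM2B were the members with the lowest log2 values of SUM159PT against the CSC groups. MDM2 was lower by a log2 value of -3.93 against SUM149PT CSCs (17.6-fold, adjusted p = 2.22e-07) and -3.86 against HCC1937 CSCs (16.8-fold, adjusted p = 2.13e-07). RRM2B was lower by -4.51 (28.2-fold, adjusted p = 3.88e-06) and -3.82 (17.4-fold, adjusted p = 7.66e-06). The longest transcripts of these genes have 36.4% (RRM2B) and 41.9% (MDM2) GC, and the sizes moved when the trend of each library on GC content was removed. Then MDM2 was at -1.71 and -1.47, and RRM2B at -1.63 and, short of the fold limit, -0.84, so that they were not the lowest 2 members in either comparison. Both stayed lower in SUM159PT under each alternative tried.

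TP53I3 was the 1 member called higher in SUM159PT than in both CSC groups, by 2.15 (4.67-fold, adjusted p = 5.78e-07) and 1.88 (3.72-fold, adjusted p = 0.00013), against medians of all genes that were negative. It was higher under each alternative tried, at 1.56 and 1.59 with the GC trend removed, though under TPM scaling the value against HCC1937 CSCs was 0.92, short of the fold limit. TP73 was higher than in HCC1937 CSCs by 1.61 (3.24-fold, adjusted p = 0.00025) and came to 0.99 with a pseudocount of 1 and 0.71 under TPM scaling, both short of the limit. Against SUM149PT CSCs TP73 differed by 0.26, a value that was called higher under quantile scaling (1.39) and turned to -0.80 under TPM scaling and -0.44 with the GC trend removed.

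TP63 was lower in SUM159PT than in SUM149PT CSCs by -3.69 (14.4-fold, adjusted p = 3.26e-07) under every setting tried, with -1.59 when the GC trend was removed. Against HCC1937 CSCs it was lower by -1.89 (4.03-fold, adjusted p = 3.97e-06), but at -0.16 (adjusted p = 0.20) under quantile scaling and at 0.39 with the GC trend removed, so that this direction depends on the scaling. CDKN1A was lower than in SUM149PT CSCs by -2.16 (adjusted p = 1.93e-06) and GADD45A by -1.67 (adjusted p = 1.69e-06), and both kept that direction and call in all alternatives. Against HCC1937 CSCs CDKN1A differed by 0.50 and GADD45A by 0.14, and neither was called, though CDKN1A was under upper quartile scaling (1.05). SFN and SESN1 differed from SUM149PT CSCs by 0.32 and -0.87 and from HCC1937 CSCs by -0.82 and 0.31, none called as reported. Against HCC1937 CSCs SFN was called lower under quantile (-1.19) and TPM scaling (-1.82) and with the GC trend removed (-1.28), and SESN1 was called higher under quantile scaling (1.88) and with the GC trend removed (2.39). Against SUM149PT CSCs SESN1 was called lower under TPM scaling (-1.96) and higher with the GC trend removed (1.03). These calls depend on the scaling.

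**Figure D4:**
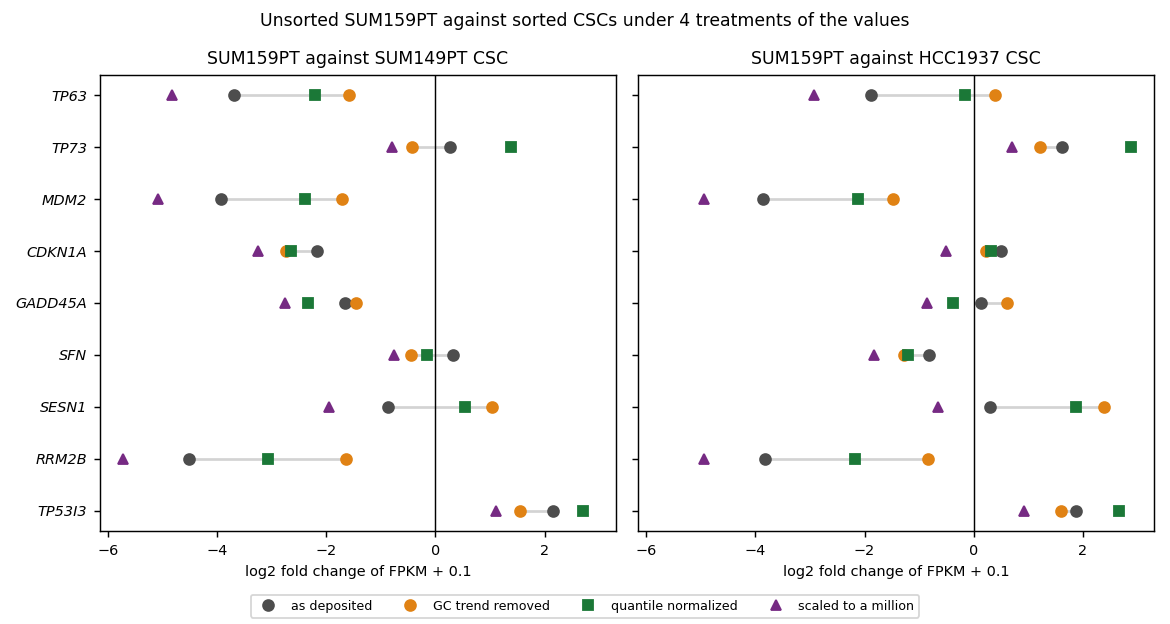
Log2 fold change of SUM159PT against the SUM149PT CSCs and the HCC1937 CSCs for each member, on the scale of log2(FPKM + 0.1), as deposited, with the GC trend removed, quantile normalized and scaled to equal sums (TPM). MDM2 and RRM2B lie below 0 and TP53I3 above 0 under all 4, while TP63 against HCC1937 CSCs runs from -2.92 to 0.39.

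Among 12164 genes averaging 1 FPKM or more, those most like TP63 over the 15 libraries, by Pearson r of log2(FPKM + 0.1), were FAM198B (0.988), WNT7B (0.988), SEL1L3 (0.986), COX19 (0.984) and RAC1 (0.982). WNT7B, a secreted Wnt ligand, had means of 48.8 FPKM in SUM149PT CSCs, 11.1 in SUM149PT non-CSCs, 13.1 in HCC1937 CSCs, 18.9 in HCC1937 non-CSCs and 3.08 in SUM159PT, in the same order as those of TP63. Most like CDKN1A were SH3BP2 (0.992), MAFF (0.989), PPARD (0.988), FOXC1 (0.988) and CEACAM19 (0.988). MAFF, a small transcription factor of stress responses, had means of 75.4 and 73.4 FPKM in SUM149PT CSCs and non-CSCs, 26.9 and 34.6 in those of HCC1937, and 29.02 in SUM159PT. The 15 libraries form 5 groups and share lines and base composition, so these values describe likeness of pattern alone.

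Replicates of a group were close for most members. The coefficient of variation over 3 libraries had a median over the groups of 4.92% for GADD45A, 5.31% for MDM2, 6.25% for TP63 and 6.99% for SFN. It was larger for the genes at low level, with 10.9% for TP73 and 14.5% for SESN1. The members with the widest spread in any group were RRM2B (44.9%, in SUM159PT), TP73 (34.9%, in SUM149PT non-CSCs) and TP53I3 (26.9%, in HCC1937 CSCs), in groups where these genes were at no more than 2.32 FPKM.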

How the data were processed

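The authors deposited FPKM for 33158 genes in 15 libraries, sequenced with Illumina's HiSeq. The processing notes in the labels name GRCh38 and Bowtie2. The quantification tool, annotation and strand are not given in the sources used here. Each column was matched to its library by the labels. limma 3.58.1 in R 4.3.3 (lmFit, eBayes, two-sided) was fitted on log2(FPKM + 0.1), for genes averaging 0.1 FPKM or more in the fitted libraries, with Benjamini-Hochberg adjustment over all of them. The study used the same tool with an adjusted p limit of 0.0001, tried here as an alternative. It also set a limit on an enrichment score, which was not used here, so counts at 0.0001 do not repeat its procedure. The 9 members and the gene lists were chosen with earlier results of these data known. Beside the members, the text names from each list the 2 genes with the highest mean and, for each sorted line, the 2 with the largest fold change among those called. Of the genes this rule picks, 2 are not reported here. It also names the 5 genes most like TP63 and CDKN1A, and genes added later are marked.

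Alternatives were pseudocounts of 0.01 and 1, other minimum levels, scaling by TPM, by quantiles or by the upper quartile, a trended or a robust eBayes, a fit of all 15 libraries, a replicate block, other call limits and leaving out each library. Removing a trend on the GC content of the longest transcript was chosen after seeing the data. It used GENCODE 29, matched by symbol for 86.7% of genes above the minimum, and coordinates and exons came from it too. In the lists RFWD2, PIDD and C12orf5 were taken as older symbols of COP1, PIDD1 and TIGAR. Promoters were from RefSeq. The fits were tested on simulated data. Python 3.11.15, numpy 2.4.6, pandas 2.3.3, scipy 1.17.1 and matplotlib 3.10.9 were used.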

Additional observations from a re-analysis of the deposited data

Results flagged for a closer look

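The difference between CSCs and non-CSCs was not the same in both lines for 8 of the 9 members, by limma's test of the difference itself over the 12 sorted libraries. The effect in SUM149PT minus that in HCC1937 on the log2 scale was 3.05 for TP63, 2.06 for GADD45A, 1.95 for TP73, 1.28 for SESN1, 0.90 for MDM2, 0.53 for CDKN1A and 0.46 for RRM2B, which were all higher in SUM149PT. For SFN it was -1.07. The adjusted p ran from 1.05e-07 for TP63 to 0.0136 for RRM2B, which was 0.14 when all 15 libraries were fitted together. By the adjusted p alone 61.1% of all genes also differed between the lines, so a difference of this kind was common. Groups of 3 libraries were not tested for outlying samples.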

How the results depend on the processing

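Of 1187 values of the members' log2 fold changes under alternatives, 1101 kept their direction and their side of the limits, 27 were no longer called, 29 became called and 30 turned in direction. The causes were not tested. The 58 calls of listed genes between fractions gave 1150 values, of which 1093 stayed called, 57 did not and 0 turned. TP73 in HCC1937 gave no value with a minimum mean of 1 FPKM.

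With a pseudocount of 1, the number of all genes called was 3109 in SUM149PT (5596 as reported), 626 in HCC1937 (1357), 2872 for the difference between lines (5004) and 3788 for HCC1937 against SUM149PT (6629), and 1 member was called in HCC1937 in place of 2. With a minimum mean of 1 FPKM, where fewer genes are tested, 3623 were called in SUM149PT and 872 in HCC1937. At the limit of 0.0001 on the adjusted p, 3292 genes and 4 members passed in SUM149PT, without TP73 and SESN1, and 2922 for the difference between lines, and 3 members for that difference and 3 for SUM159PT against HCC1937 CSCs. In HCC1937 that limit left 0 genes and 0 members in limma, with 0.00013 as the smallest adjusted p and 5886 genes at an unadjusted p under 0.05. The study reports differentially expressed genes in HCC1937, and more of them than in SUM149PT, so its counts were not reproduced here. With no fold limit 11993 genes passed in SUM149PT, 3985 in HCC1937, 10053 for the difference and 13592 for HCC1937 against SUM149PT, with 5 members in HCC1937, 8 for the difference and 7 for HCC1937 against SUM149PT. In HCC1937 1 member was called under quantile scaling, TPM scaling and GC trend removal, and 2 were called in HCC1937 against SUM149PT under upper quartile scaling. Leaving out 1 library gave 5 to 6 members in SUM149PT, 1 to 2 in HCC1937 and 4 to 5 for the difference, and the other 3 comparisons stayed at 1, 6 and 5. With replicate number as a block the member counts were unchanged, and among listed genes GLS2 in HCC1937 was no longer called (adjusted p = 0.095). CSC and non-CSC libraries of the same number had r of 0.0867, 0.0238 and 0.0797 in SUM149PT, where the highest r with another number was 0.0235, 0.035 and -0.0257, so that 2 of 3 CSC libraries were most alike to their own number. In HCC1937 r was -0.0841, -0.0364 and -0.0194, below the highest with another number in each case (0.0835, 0.0193 and 0.0667).

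Directions turned mainly with scaling. GADD45A in HCC1937 was 0.058 under quantile scaling, 0.095 under TPM scaling and 0.0059 with the GC trend removed. TP53I3 in HCC1937 against SUM149PT was -0.0070 with a pseudocount of 1, -0.22 under upper quartile, -0.14 under quantile and -0.11 under TPM scaling, and -0.19 with the GC trend removed. For SUM159PT against SUM149PT CSCs, quantile scaling gave SFN -0.15 and SESN1 0.55, TPM scaling gave TP73 -0.80 and SFN -0.77, and GC trend removal gave TP73 -0.44, SFN -0.45 and SESN1 1.03. For SUM159PT against HCC1937 CSCs, quantile scaling gave GADD45A -0.37, TPM scaling gave CDKN1A -0.50, GADD45A -0.86 and SESN1 -0.65, and GC trend removal gave TP63 0.39. Leaving out 1 library gave -0.025 to 0.087 for CDKN1A in SUM149PT, -0.13 to 0.024 for GADD45A and -0.14 to 0.24 for TP73 in HCC1937, and -0.061 to 0.13 for TP53I3 in HCC1937 against SUM149PT.

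The median of all genes shifted by over 0.1 on the log2 scale in SUM149PT under quantile scaling (0.23) and GC trend removal (0.10), in HCC1937 under TPM scaling (0.12), and for the difference under quantile scaling (0.14) and GC trend removal (0.12). For HCC1937 against SUM149PT it shifted by -0.22 under upper quartile, -0.11 under quantile and -0.13 under TPM scaling, -0.17 with the GC trend removed and -0.13 with no minimum. For SUM159PT the shifts ran from -0.97 under TPM scaling to 0.84 under quantile scaling against SUM149PT CSCs, and from -0.86 to 1.02 under the same scalings against HCC1937 CSCs. With no read counts the depth behind low values, such as TP73 below 1 FPKM, is unknown.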
